A study of Mus musculus with 15 samples.

Results

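The genes described here carry cells through division, from the licensing and copying of DNA to the separation of chromosomes. They were chosen by gene symbol, and 44 of the 45 chosen genes were measured by a transcript cluster (the set of probes combined into 1 value) that carries a single symbol, among 19938 genes of the array measured in this way. Of the 44, 13 act in DNA replication, 3 are cyclins of G1 and 28 act in mitosis. Ccnb1 was not analysed here. The RNA came from livers of male C57BL/6J mice and was read on 15 arrays (GeneChip Mouse Gene 1.0 ST), 3 per group. The Ath+HF+BCAA group received an atherogenic and high-fat diet with 3% branched-chain amino acids (leucine, isoleucine and valine), the Ath+HF group received the same diet without them, and the basal group a basal diet. Arrays of the Ath+HF+BCAA and Ath+HF groups come from 68w, after 60 weeks of diet, and from 38w, after 30 weeks, and the basal arrays used here are all from 38w. The labels name no genetic change in any group.

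Most hepatocytes of an adult liver rest outside the cell cycle and can re-enter it. Entry depends on D-type and E-type cyclins, which release E2F transcription factors from RB proteins and so turn on the genes that license origins, make nucleotides and build the replication fork. Genes of G2 and mitosis follow later, under the MuvB complex with B-MYB and FOXM1, which acts through a promoter element called the cell cycle genes homology region (CHR) and often beside CCAAT boxes, the sites of the factor NF-Y.

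Signals are log2 values that the authors had normalized by RMA, a method that corrects background, equalizes arrays and combines probes, and a difference of 1 on this scale is a doubling. They depend on a gene's probes, so levels were compared between arrays and never between genes. Of the 44 genes, 31 had a mean signal below the median gene, and the rest of the text gives differences of mean log2 signal from limma, with standard errors (SE) and p-values adjusted over all 19938 genes. A gene is called at an adjusted p under 0.05. The sources do not say that each array holds a separate mouse, so the spread behind a p-value is that between arrays and may be technical. Arrays of 68w differ from the basal arrays in age and time on the diet as well as in the diet, and these and any batch cannot be told apart. Group names are the labels of the arrays and nothing else, and the direction of every comparison with a 68w group, against basal and against 38w too, rests on those labels. Whether the labels of the 68w groups had been exchanged was not tested. Macrophage markers separated these groups, with a summed linear signal of 12 markers of 20844 to 26419 in the Ath+HF+BCAA 68w arrays, 4684 to 5558 in the Ath+HF 68w arrays, 13328 to 19230 and 15904 to 19316 in the 38w arrays of these diets, and 7528 to 7848 in the basal arrays. The 7 hepatocyte markers summed to between 73683 and 83085 in all 15 arrays. In whole liver, fewer cells of a type and less RNA per cell cannot be told apart.

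The promoters of the genes differ in their letters between the classes, and 7 chosen ones are printed as examples. The sequences are from RefSeq (GRCm38.p6), where a promoter runs from 250 bases before to 50 bases after the start of the gene, and 36 of the 45 chosen genes had 39 promoters there. The table has no entry for Mcm4, Gins1, Ccnd1, Ccne2, Ccna2, Foxm1, Aurkb, Kif20a and Tpx2. Each is printed 5′ to 3′ on the strand of its gene, from the first to the last match among the 250 bases before the start, with up to 6 bases on each side. Capitals mark 3 sets of letters on either strand. The NF-Y box is CCAAT, which reads ATTGG on the other strand. The CHR is TTTGAA, with TTCAAA there. The E2F letters searched were TTCCCGC. Variants of it were TTGGCGC, then TTCGCGC, which shares its ends, and TTGCCGC. All were read on both strands. Matches to them can overlap each other. Mki67, the gene of the proliferation marker Ki-67, ends its stretch (chr7:135716434-135716573, minus strand) 55 bases before the start. Cdk1, the kinase that drives entry into mitosis (chr10:69352916-69353126, minus strand), Ccnb2, a B-type cyclin that activates Cdk1 (chr9:70421565-70421727, minus strand), and Top2a, the topoisomerase that untangles sister chromatids (chr11:99024201-99024422, minus strand), stand for mitosis with it. Mcm5, a subunit of the replicative helicase (chr8:75109339-75109497, plus strand), Mcm6, another subunit of that helicase (chr1:128359709-128359820, minus strand), and Rrm1, the large subunit of ribonucleotide reductase (chr7:102441598-102441660, plus strand), stand for replication.
Mki67: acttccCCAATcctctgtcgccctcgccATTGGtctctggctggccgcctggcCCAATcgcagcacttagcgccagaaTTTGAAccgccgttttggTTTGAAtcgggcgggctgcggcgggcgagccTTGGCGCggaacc
Cdk1: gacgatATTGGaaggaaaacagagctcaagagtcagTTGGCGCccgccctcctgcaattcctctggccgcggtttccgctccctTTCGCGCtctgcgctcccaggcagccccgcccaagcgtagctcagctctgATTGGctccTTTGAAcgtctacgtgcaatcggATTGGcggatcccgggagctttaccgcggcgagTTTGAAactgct
Ccnb2: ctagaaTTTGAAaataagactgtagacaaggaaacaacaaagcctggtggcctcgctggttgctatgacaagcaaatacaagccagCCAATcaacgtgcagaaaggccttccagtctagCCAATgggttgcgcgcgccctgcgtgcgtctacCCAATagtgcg
Top2a: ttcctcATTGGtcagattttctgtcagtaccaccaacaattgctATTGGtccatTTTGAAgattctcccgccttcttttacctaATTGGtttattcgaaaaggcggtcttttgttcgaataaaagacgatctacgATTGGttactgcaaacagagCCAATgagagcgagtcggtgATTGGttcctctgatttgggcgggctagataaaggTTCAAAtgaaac
Mcm5: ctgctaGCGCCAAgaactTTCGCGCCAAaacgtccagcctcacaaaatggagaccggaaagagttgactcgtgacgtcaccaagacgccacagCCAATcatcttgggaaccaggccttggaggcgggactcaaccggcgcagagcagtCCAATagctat
Mcm6: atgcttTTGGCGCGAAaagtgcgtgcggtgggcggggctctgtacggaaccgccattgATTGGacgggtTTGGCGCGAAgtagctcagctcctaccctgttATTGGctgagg
Rrm1: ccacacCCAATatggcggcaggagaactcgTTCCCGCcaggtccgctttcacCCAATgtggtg

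The following counts are of the printed stretches, and bases from the start on hold further matches in Ccnb2, Mcm5 and Mcm6. All 4 mitosis stretches hold CHR letters, from 1 match in Ccnb2 to 2 in Mki67, Cdk1 and Top2a, and the 3 replication stretches hold none. Top2a has 6 NF-Y boxes, Mki67, Cdk1 and Ccnb2 have 3 each, and Mcm5, Mcm6 and Rrm1 have 2 each. Mcm6 has 4 matches to the E2F letters, which lie in 2 overlapping pairs, Mcm5 has 3, Cdk1 has 2, and Mki67 and Rrm1 have 1 each. Over whole promoters, those bases included, CHR letters were present in 19 of 26 for mitosis (73.1%), 1 of 12 for replication (8.33%) and 17.9% of the 32851 promoters of the table. E2F letters ran the other way, with 3 of 26 (11.5%) for mitosis, 9 of 12 (75%) for replication and 9.57% of the table. NF-Y boxes were present in 73.1% for mitosis, 75% for replication and 37.4% of the table, and a box together with CHR letters in 61.5%, 8.33% and 6.95%. The 26 mitosis promoters include that of Ccnb1, and the single G1 promoter, of Ccne1, holds none of the letters. The printed promoters are examples, and others of the genes differ from them. Bub1 has no CHR letters, Pcna and Tyms have no E2F letters, and Cdt1 and Tyms have no NF-Y box. Mki67 and Cdk1 are among the 3 mitosis promoters with E2F letters. These shares describe letters in windows and not binding.

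**Figure D1:**
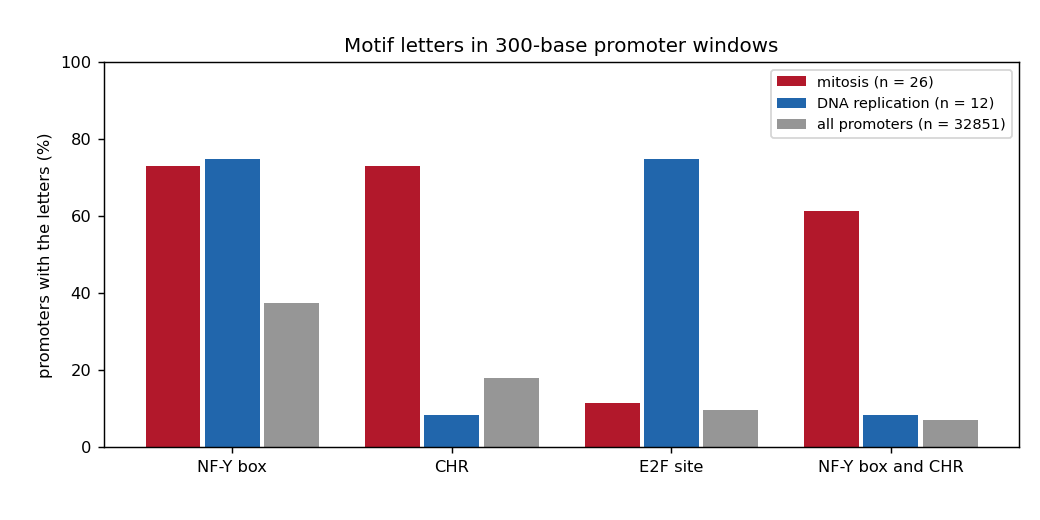
Percent of promoters (vertical axis) that hold an NF-Y box, a CHR, an E2F site by its letters, or an NF-Y box and a CHR together, for mitosis (26 promoters), DNA replication (12) and all 32851 promoters. CHR letters stand at 73.1% for mitosis and 8.33% for replication, and E2F letters at 11.5% and 75%.

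Across the 5 groups, the mitosis genes were highest in the Ath+HF+BCAA 68w arrays. This group had the highest mean for 27 of 28 mitosis genes, 3 of 3 G1 cyclins and 8 of 13 replication genes, with Cdc20, which activates the anaphase-promoting complex, as the mitosis gene that was highest in the Ath+HF 38w group. The lowest mean lay in the Ath+HF 68w group for 13 mitosis and 8 replication genes, and in the basal group for 12 mitosis genes. The shares of all genes with their highest or lowest mean in each group were not counted, so these counts have no background to be read against. As deposited, 5 of the 44 genes were called in none of 9 comparisons, which were Cdc6, Aurka, Birc5, Melk and Espl1. With array weights, Cdc6 (0.24, adjusted p = 0.0294) and Birc5 (0.32, adjusted p = 0.0348) were called higher with BCAA than without at 68w, and Birc5 was called higher than basal with BCAA when the groups were fitted alone (0.33, adjusted p = 0.0314). Within a group, the standard deviation of a gene lay between 0.006 and 0.602 over 3 arrays.

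**Figure D2:**
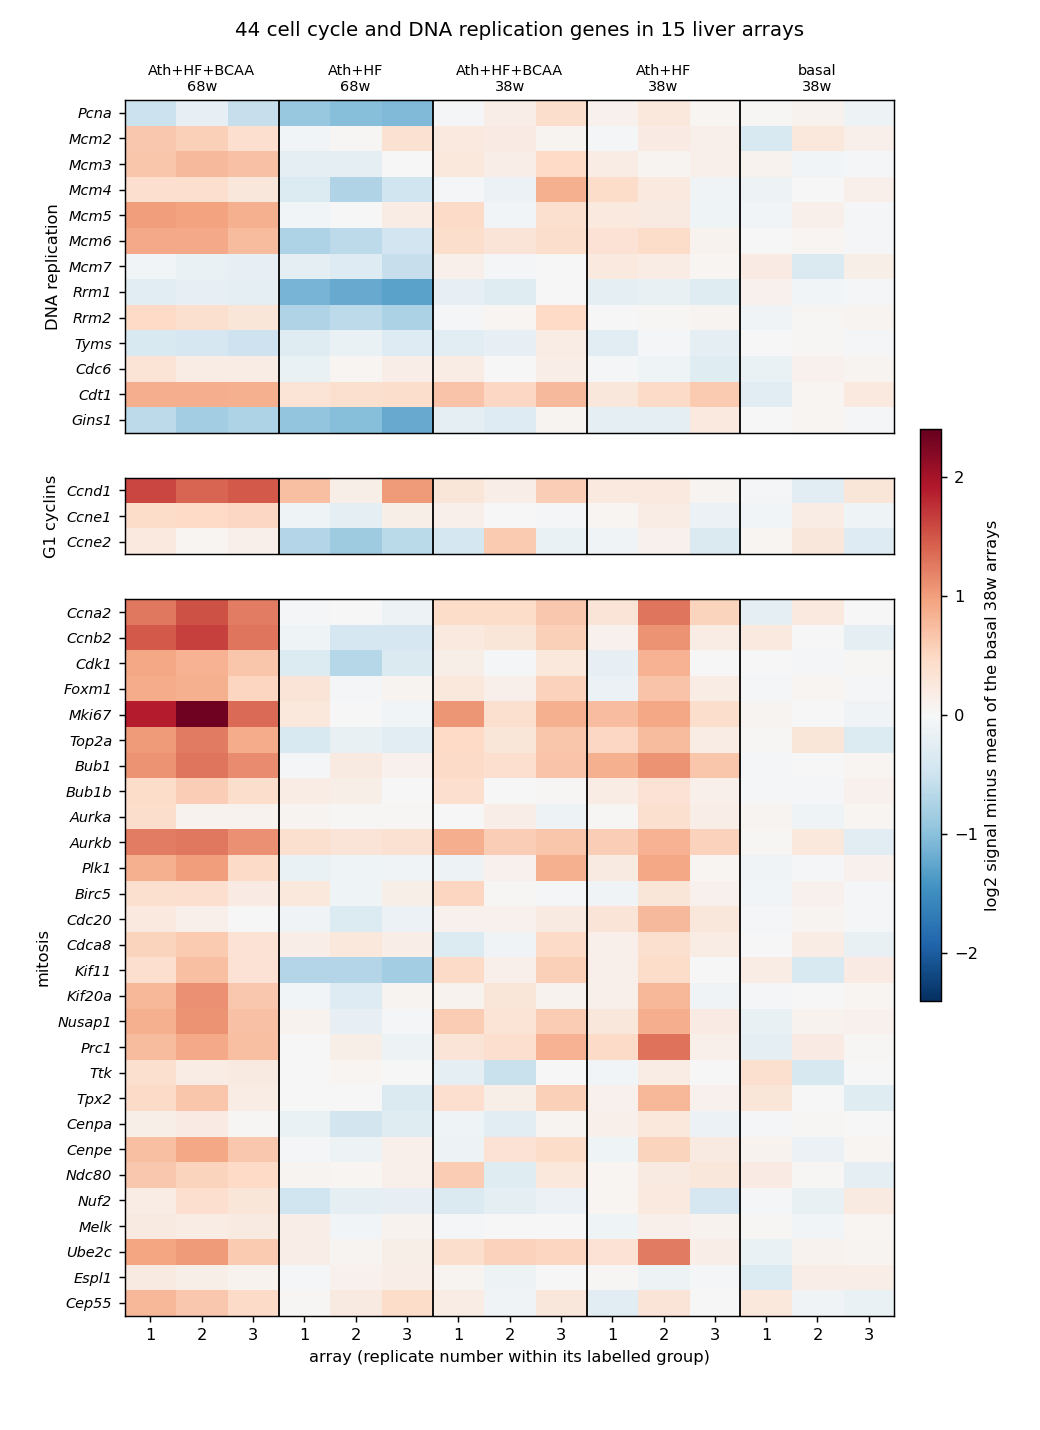
Log2 signal of each of the 44 genes (down) in each of the 15 arrays (across, by group) minus the mean of the basal 38w arrays, red above it and blue below. Mitosis genes are mostly above the basal mean in the Ath+HF+BCAA 68w arrays, and several replication genes, among them Pcna, Rrm1 and Gins1, are below it in the Ath+HF 68w arrays.

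The genes that load and form the replicative helicase separated the 68w groups. Cdt1 loads the MCM complex onto origins together with Cdc6, and Mcm2 to Mcm7 form its ring. Mcm6 measured 7.90, 7.91 and 7.76 in the Ath+HF+BCAA 68w arrays, 6.25, 6.38 and 6.54 in the Ath+HF 68w arrays and 6.996, 7.04 and 6.96 in the basal 38w arrays. At 38w it measured 7.41, 7.31 and 7.42 in the Ath+HF+BCAA group and 7.34, 7.43 and 7.09 in the Ath+HF group. The Ath+HF+BCAA 68w arrays were above all other arrays and the Ath+HF 68w arrays below all others. The difference between the Ath+HF+BCAA and Ath+HF groups at 68w was 1.47 (SE 0.10, adjusted p = 4.58e-08), and against basal it was 0.86 (SE 0.10, adjusted p = 7.69e-06) with BCAA and -0.61 (SE 0.10, adjusted p = 5e-04) without. In the Ath+HF+BCAA 68w arrays Mcm5 was at 8.52, 8.49 and 8.38, in the Ath+HF 68w arrays at 7.46, 7.52 and 7.70 and in the basal arrays at 7.45, 7.64 and 7.48. Its 38w signals were 7.99, 7.46 and 7.91 with BCAA and 7.76, 7.74 and 7.41 without. Only the Ath+HF+BCAA 68w arrays stood apart, above the other 12, and the Ath+HF 68w arrays overlapped the basal ones. Their difference at 68w was 0.90 (SE 0.14, adjusted p = 7.84e-05). For Cdt1 the signals were 7.89, 7.90 and 7.89 in the Ath+HF+BCAA 68w arrays, 7.37, 7.41 and 7.46 in the Ath+HF 68w arrays and 6.76, 7.07 and 7.26 in the basal arrays. The 38w arrays gave 7.71, 7.52 and 7.82 in the Ath+HF+BCAA group and 7.31, 7.48 and 7.65 in the Ath+HF group. The Ath+HF+BCAA 68w arrays were again the highest, and the Ath+HF 68w arrays lay above the basal arrays, among the Ath+HF 38w arrays and below the Ath+HF+BCAA 38w arrays. Against basal, Cdt1 was higher by 0.87 (SE 0.13, adjusted p = 4.05e-05) with BCAA and by 0.38 (SE 0.13, adjusted p = 0.0257) without, a call that was lost without basal replicate 1 or Ath+HF 68w replicate 2 or 3 (adjusted p from 0.0611 to 0.13). With the others of the ring, Mcm2, Mcm3 and Mcm4 were called higher in the Ath+HF+BCAA than the Ath+HF group at 68w by 0.44, 0.86 and 0.87, whereas Mcm7 (0.22) and Cdc6 (0.21) were not called.

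Genes of nucleotide supply and of the fork included those that were lower at 68w. Rrm1 and Rrm2, the subunits of ribonucleotide reductase, make deoxynucleotides, and Tyms makes thymidylate. Rrm1 had 8.12, 8.19 and 8.18 in the Ath+HF+BCAA 68w arrays, against 7.28, 7.18 and 7.11 in the Ath+HF 68w arrays and 8.50, 8.33 and 8.35 in the basal arrays. With BCAA at 38w it had 8.20, 8.10 and 8.41, and without BCAA at 38w 8.18, 8.21 and 8.11. The Ath+HF 68w arrays were below all others by a wide gap, and the Ath+HF+BCAA 68w arrays lay among the 38w arrays of both diets but below the basal arrays. Rrm1 differed from basal by -1.20 (SE 0.10, adjusted p = 1.96e-06) in the Ath+HF 68w group, and the 68w groups differed by 0.97 (SE 0.10, adjusted p = 1.15e-06). Its difference from basal with BCAA at 68w was -0.23 (SE 0.10, adjusted p = 0.0587). This was called lower with array medians set equal (-0.44, adjusted p = 0.00106) and after quantile normalization (-0.33, adjusted p = 0.0102). It was also called with array weights (-0.24, adjusted p = 0.0328) and without dim genes (-0.23, adjusted p = 0.0316). Rrm2 averaged 8.10 ± 0.09 in the Ath+HF+BCAA 68w arrays, 7.02 ± 0.07 in the Ath+HF 68w arrays and 7.72 ± 0.08 in the basal arrays (SD, n = 3 each). It was called higher with BCAA and lower without it against basal, and the higher call was lost without basal replicate 1 or Ath+HF+BCAA 68w replicate 1 (adjusted p = 0.0619 and 0.0701). Tyms measured 7.53, 7.49 and 7.41 in the Ath+HF+BCAA 68w arrays, 7.62, 7.75 and 7.59 in the Ath+HF 68w arrays and 7.91, 7.93 and 7.86 in the basal 38w arrays. At 38w it measured 7.63, 7.70 and 8.08 in the Ath+HF+BCAA group and 7.65, 7.87 and 7.67 in the Ath+HF group. Here the Ath+HF+BCAA 68w arrays were below all other arrays, and Tyms was the gene for which they lay below the Ath+HF 68w arrays. It differed from basal by -0.43 (SE 0.11, adjusted p = 0.00614), while the difference between the 68w groups was -0.18 (SE 0.11, adjusted p = 0.233).

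Pcna, the sliding clamp of the DNA polymerases, and Gins1, a subunit of the GINS complex that joins the helicase at the fork, were low in both 68w groups. In the Ath+HF+BCAA 68w arrays Pcna was at 9.78, 10.10 and 9.74, in the Ath+HF 68w arrays at 9.39, 9.28 and 9.24 and in the basal arrays at 10.32, 10.39 and 10.18. Its 38w signals were 10.25, 10.46 and 10.73 with BCAA and 10.41, 10.55 and 10.35 without. Both 68w groups were below all 38w arrays, and the Ath+HF 68w arrays were below those with BCAA. Pcna differed from basal by -0.42 (SE 0.13, adjusted p = 0.0129) with BCAA and by -0.99 (SE 0.13, adjusted p = 6.23e-05) without, and the 68w groups differed by 0.57 (SE 0.13, adjusted p = 0.00241). The call with BCAA was lost without Ath+HF+BCAA 68w replicate 1 or 3 (adjusted p = 0.055 and 0.0586). A further Pcna cluster gave almost the same group means (for example 9.29 against 9.31 in the Ath+HF 68w group), so copies of this gene cannot be told apart. For Gins1 the signals were 6.15, 5.93 and 6.04 in the Ath+HF+BCAA 68w arrays, 5.83, 5.76 and 5.57 in the Ath+HF 68w arrays and 6.77, 6.83 and 6.73 in the basal arrays. The 38w arrays gave 6.54, 6.47 and 6.84 in the Ath+HF+BCAA group and 6.54, 6.56 and 7.02 in the Ath+HF group. The groups of 68w did not overlap each other or the 38w arrays. Gins1 differed from basal by -0.73 (SE 0.13, adjusted p = 0.000317) with BCAA and by -1.06 (SE 0.13, adjusted p = 5.45e-05) without, and the difference between the 68w groups missed the threshold at 0.32 (SE 0.13, adjusted p = 0.0696). It was called after quantile normalization (0.44, adjusted p = 0.0216), with array weights (0.30, adjusted p = 0.0219) and with the groups fitted alone (0.32, adjusted p = 0.0276).

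Of the G1 cyclins, Ccnd1 encodes cyclin D1, which activates Cdk4 and Cdk6 on growth signals. Ccnd1 had 11.44, 11.24 and 11.31 in the Ath+HF+BCAA 68w arrays, against 10.56, 9.98 and 10.85 in the Ath+HF 68w arrays and 9.81, 9.56 and 10.13 in the basal arrays. With BCAA at 38w it had 10.13, 9.99 and 10.43, and without BCAA at 38w 10.07, 10.06 and 9.91. The Ath+HF+BCAA 68w arrays were above all other arrays, and the Ath+HF 68w arrays spread widely and overlapped the basal ones. Ccnd1 was higher than basal by 1.49 (SE 0.19, adjusted p = 1.16e-05) with BCAA and by 0.63 (SE 0.19, adjusted p = 0.0174) without, and the 68w groups differed by 0.87 (SE 0.19, adjusted p = 0.00206). The call against basal without BCAA was lost when Ath+HF 68w replicate 1 or 3, or basal replicate 2, was left out (0.43 to 0.58, adjusted p from 0.0528 to 0.0959). The cyclins Ccne1 and Ccne2, partners of Cdk2 at the entry to S phase, averaged 7.58 ± 0.04 and 6.36 ± 0.10 in the Ath+HF+BCAA 68w arrays, 7.05 ± 0.18 and 5.49 ± 0.10 in the Ath+HF 68w arrays, and 7.11 ± 0.15 and 6.22 ± 0.29 in the basal arrays. Both were called higher with BCAA at 68w than without, while Ccne2 in the Ath+HF 68w arrays was called lower than basal, except without basal replicate 2 (adjusted p = 0.0564).

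**Figure D3:**
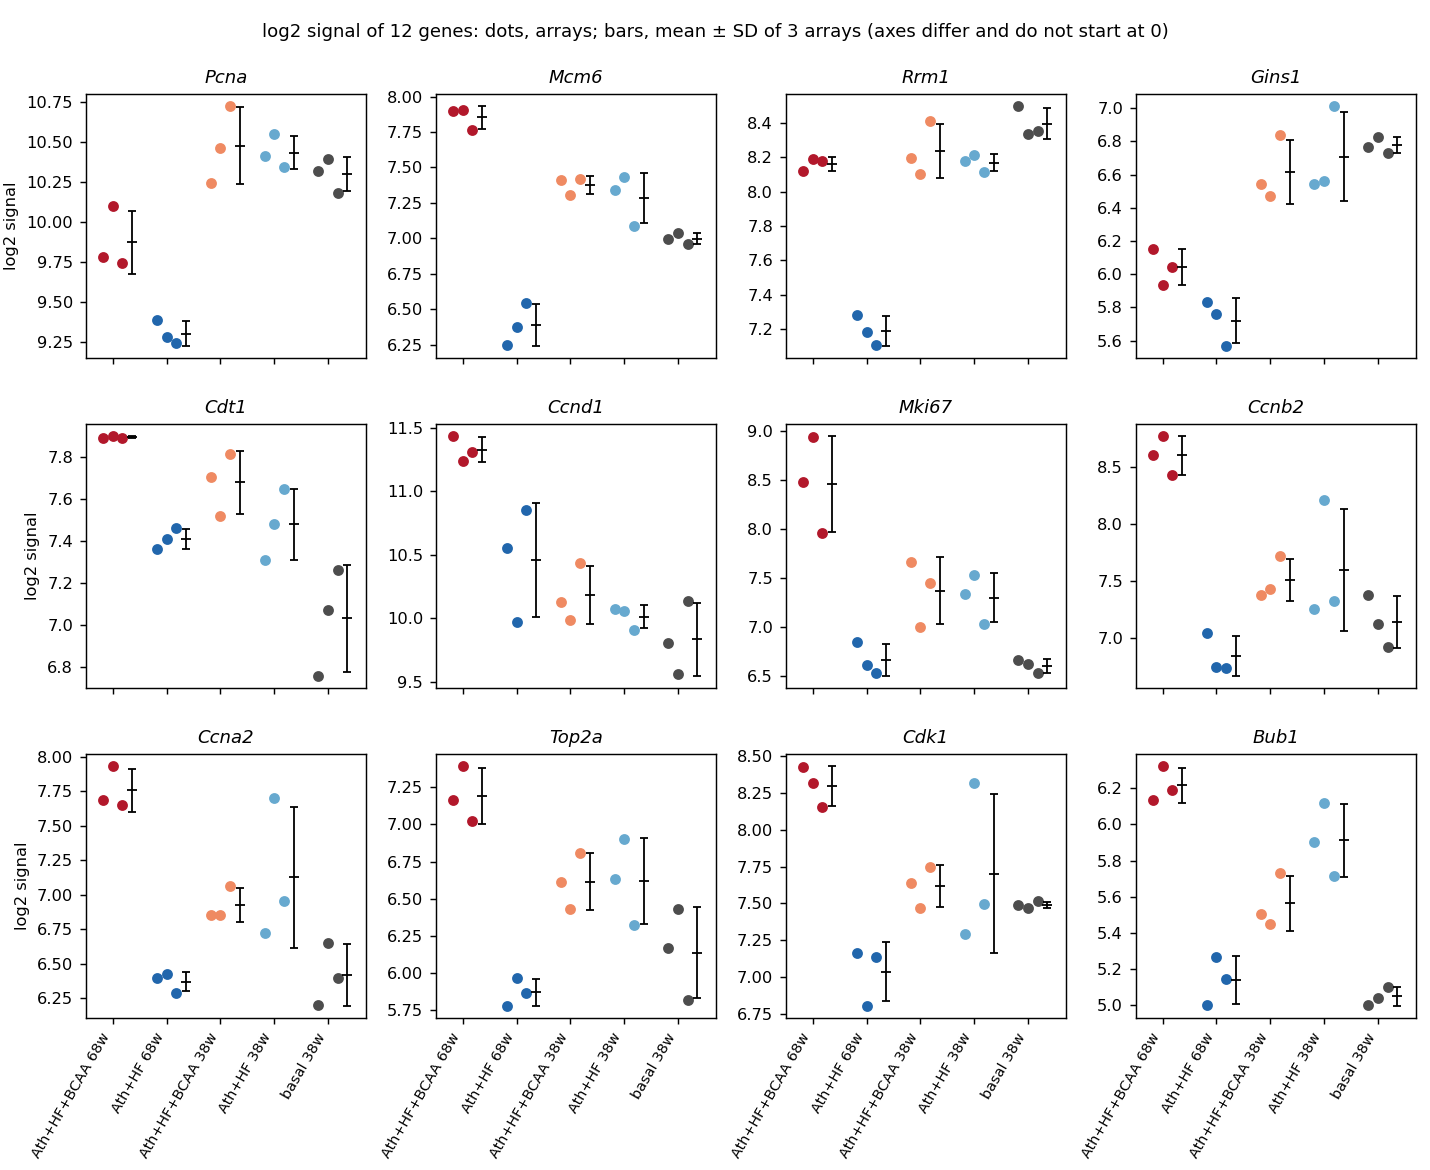
Log2 signal (vertical axis, a scale of its own in each panel) of 12 genes in the 5 groups, with a dot for each array and bars for the mean ± SD of 3 arrays. For Mki67, Ccnb2 and Top2a the Ath+HF+BCAA 68w dots lie above all other dots, and for Pcna and Gins1 both 68w groups lie below the 38w dots.

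Among the mitosis genes, Mki67 encodes a protein that coats mitotic chromosomes. Mki67 measured 8.48, 8.94 and 7.96 in the Ath+HF+BCAA 68w arrays, 6.85, 6.62 and 6.53 in the Ath+HF 68w arrays and 6.66, 6.62 and 6.53 in the basal 38w arrays. At 38w it measured 7.67, 6.996 and 7.45 in the Ath+HF+BCAA group and 7.34, 7.53 and 7.03 in the Ath+HF group. The Ath+HF+BCAA 68w arrays were above all others, the 38w arrays of both diets were intermediate, and the Ath+HF 68w arrays overlapped the basal arrays. The 68w groups differed by 1.79 (SE 0.21, adjusted p = 6.92e-06), the group with BCAA was above basal by 1.86 (SE 0.21, adjusted p = 3.86e-06), and the difference without it was 0.06 (SE 0.21, adjusted p = 0.836). In the Ath+HF+BCAA 68w arrays Ccnb2 was at 8.61, 8.78 and 8.43, in the Ath+HF 68w arrays at 7.04, 6.74 and 6.74 and in the basal arrays at 7.38, 7.13 and 6.92. Its 38w signals were 7.37, 7.43 and 7.72 with BCAA and 7.25, 8.21 and 7.33 without. Again the Ath+HF+BCAA 68w arrays were above all others, the Ath+HF 68w arrays overlapped the basal ones, and Ath+HF 38w replicate 2 was the next highest array. The 68w groups differed by 1.77 (SE 0.21, adjusted p = 7.01e-06). For Ccna2 the signals were 7.68, 7.94 and 7.65 in the Ath+HF+BCAA 68w arrays, 6.40, 6.43 and 6.29 in the Ath+HF 68w arrays and 6.20, 6.65 and 6.40 in the basal arrays. The 38w arrays gave 6.85, 6.85 and 7.06 in the Ath+HF+BCAA group and 6.72, 7.70 and 6.96 in the Ath+HF group. Ccna2 encodes cyclin A2, which acts in S phase and G2, and its value in Ath+HF 38w replicate 2 fell within the range of the Ath+HF+BCAA 68w arrays. The 68w groups differed by 1.39 (SE 0.19, adjusted p = 3.31e-05).

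Cdk1 showed the same high array at 38w. Cdk1 had 8.43, 8.32 and 8.16 in the Ath+HF+BCAA 68w arrays, against 7.16, 6.80 and 7.14 in the Ath+HF 68w arrays and 7.49, 7.47 and 7.51 in the basal arrays. With BCAA at 38w it had 7.64, 7.47 and 7.75, and without BCAA at 38w 7.29, 8.32 and 7.50. The Ath+HF 68w arrays were below every other array, although their difference from basal, -0.46 (SE 0.19, adjusted p = 0.0747), missed the threshold. It was called lower in 4 alternatives, with array medians set equal (-0.52, adjusted p = 0.0428), after quantile normalization (-0.66, adjusted p = 0.0206), with array weights (-0.54, adjusted p = 0.0414) and with the groups fitted alone (-0.46, adjusted p = 0.0211). With BCAA at 68w the arrays were 0.81 (SE 0.19, adjusted p = 0.00309) above basal and 1.27 (SE 0.19, adjusted p = 9.81e-05) above the Ath+HF 68w arrays. Top2a measured 7.16, 7.39 and 7.02 in the Ath+HF+BCAA 68w arrays, 5.78, 5.97 and 5.87 in the Ath+HF 68w arrays and 6.17, 6.43 and 5.82 in the basal 38w arrays. At 38w it measured 6.61, 6.43 and 6.81 in the Ath+HF+BCAA group and 6.63, 6.90 and 6.32 in the Ath+HF group. Only the Ath+HF+BCAA 68w arrays stood above all others. The difference from basal was 1.05 (SE 0.17, adjusted p = 9.56e-05) with BCAA for this cluster, and it was 0.28 and not called when the mean with a second, dim cluster of Top2a was taken. The second cluster went the other way, averaging 3.38 in the Ath+HF+BCAA 68w arrays and 3.87 in the basal arrays. By the mean of the clusters, Top2a was called lower than basal in the Ath+HF 68w arrays (-0.54, adjusted p = 0.00253 in limma).

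Kinases of the spindle and its checkpoint were among the mitosis genes with the smallest p against basal. Bub1 holds anaphase back until chromosomes are attached, and Aurkb corrects their attachment within the chromosomal passenger complex. In the Ath+HF+BCAA 68w arrays Bub1 was at 6.13, 6.32 and 6.19, in the Ath+HF 68w arrays at 5.00, 5.27 and 5.15 and in the basal arrays at 5.00, 5.04 and 5.10. Its 38w signals were 5.51, 5.45 and 5.73 with BCAA and 5.90, 6.12 and 5.72 without. All arrays of the 38w diet groups were above the basal arrays, and the Ath+HF+BCAA 68w arrays were above these, by little in the case of Ath+HF 38w replicate 2. The 68w groups differed by 1.08 (SE 0.12, adjusted p = 2.73e-06). For Aurkb the signals were 8.18, 8.21 and 8.05 in the Ath+HF+BCAA 68w arrays, 7.33, 7.26 and 7.31 in the Ath+HF 68w arrays and 6.97, 7.19 and 6.68 in the basal arrays. The 38w arrays gave 7.81, 7.54 and 7.61 in the Ath+HF+BCAA group and 7.53, 7.79 and 7.50 in the Ath+HF group. For Aurkb every diet group lay above the basal arrays, and the Ath+HF+BCAA 68w arrays lay highest. Its difference from basal was 1.20 (SE 0.13, adjusted p = 1.66e-06) with BCAA and 0.35 (SE 0.13, adjusted p = 0.0362) without at 68w, and the call without BCAA was lost without any of its own 3 arrays in turn, or without basal replicate 1 or 3 (adjusted p up to 0.171).

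Set against each other at 68w, the Ath+HF+BCAA arrays had 32 of the 44 genes called higher than the Ath+HF arrays and none called lower, where 19.8% of all genes were called higher and 16.4% lower. The 32 were 9 of 13 replication genes, 3 of 3 G1 cyclins and 20 of 28 mitosis genes. The median difference was 0.69 over the 44 genes and -0.09 over all genes. In 41 genes all 3 arrays with BCAA were above all 3 without, against 25.9% of all genes. In 1, Tyms, they were below, against 6531 of all 19938 genes. The further called mitosis genes were Kif11 (1.23), Kif20a (0.95) and Cenpe (0.78), kinesin motors of spindle and midzone, Nusap1 (0.93), Tpx2 (0.55) and Prc1 (0.79), which bind or bundle microtubules, Plk1 (0.89), a mitotic kinase, Ube2c (0.74), the ubiquitin-conjugating enzyme of the anaphase-promoting complex, Foxm1 (0.64), a transcription factor of G2 genes, Nuf2 (0.59), Ndc80 (0.47) and Cenpa (0.41) of the kinetochore, and Bub1b (0.37) of the checkpoint. Of these calls, Ndc80 was lost without any of the 6 arrays in turn (adjusted p from 0.0689 to 0.119) and Tpx2 without any but Ath+HF+BCAA 68w replicate 3 (adjusted p from 0.0511 to 0.157). Mcm2 was lost without replicate 1 or 2 of either group, Bub1b without Ath+HF 68w replicate 3 or Ath+HF+BCAA 68w replicate 2, and Cenpa without replicate 2 of either group. After array medians had been equalized, there were 27 higher genes and 1 lower, Tyms (-0.32, adjusted p = 0.0273), beside 2965 higher and 7362 lower of all 19938.

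Against the basal arrays, the groups of 68w differed in how many genes were called higher and lower. With BCAA, 27 genes were called higher and 3 lower, beside 22.9% and 21.8% of all genes. The higher ones were 19 of 28 mitosis genes, 6 of 13 replication genes (Mcm2, Mcm3, Mcm5, Mcm6, Rrm2 and Cdt1), Ccnd1 and Ccne1, and the lower ones were Pcna, Tyms and Gins1. All 28 mitosis genes had a positive difference, with a median of 0.69, against 0.36 for replication and 0.01 for all genes. Setting array medians equal changed the split of calls to 19 higher and 5 lower, with Mcm7 and Rrm1 added to the lower genes. Of all 19938 genes, 2649 were then higher and 7625 lower.

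Without BCAA, 3 genes were called higher and 8 lower than basal, beside 19% and 19.1% of all genes. The 8 lower of 44 are near the share of all genes, and the median over the 44 was -0.05. By class, 6 of 13 replication and 1 of 28 mitosis genes were lower. Replication genes made up 6 of the 8, which were Rrm1, Gins1, Pcna, Rrm2, Mcm6 and Mcm7 (-0.36), and the others were Ccne2 and Kif11 (-0.75). The higher genes were Cdt1, Ccnd1 and Aurkb. The median was -0.36 over replication genes, 0.01 over mitosis genes and 0.05 over all genes. The higher calls rested on few arrays, with none made without Ath+HF 68w replicate 3 and 1 made without Ath+HF 68w replicate 1 or 2 or basal replicate 1. Of all genes, 2610 to 3307 were called higher in these fits. After array medians had been equalized, 1 gene was higher and 12 were lower, beside 2651 and 4565 of all 19938 genes. Quantile normalization gave 1 and 15, beside 2222 and 3990 of all genes.

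Both comparisons share the basal arrays, and the comparison between the 68w groups uses the same 68w arrays again, so these counts are not independent of each other. Pcna was called in all 3, higher with BCAA than without but lower than basal in both groups.

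**Figure D4:**
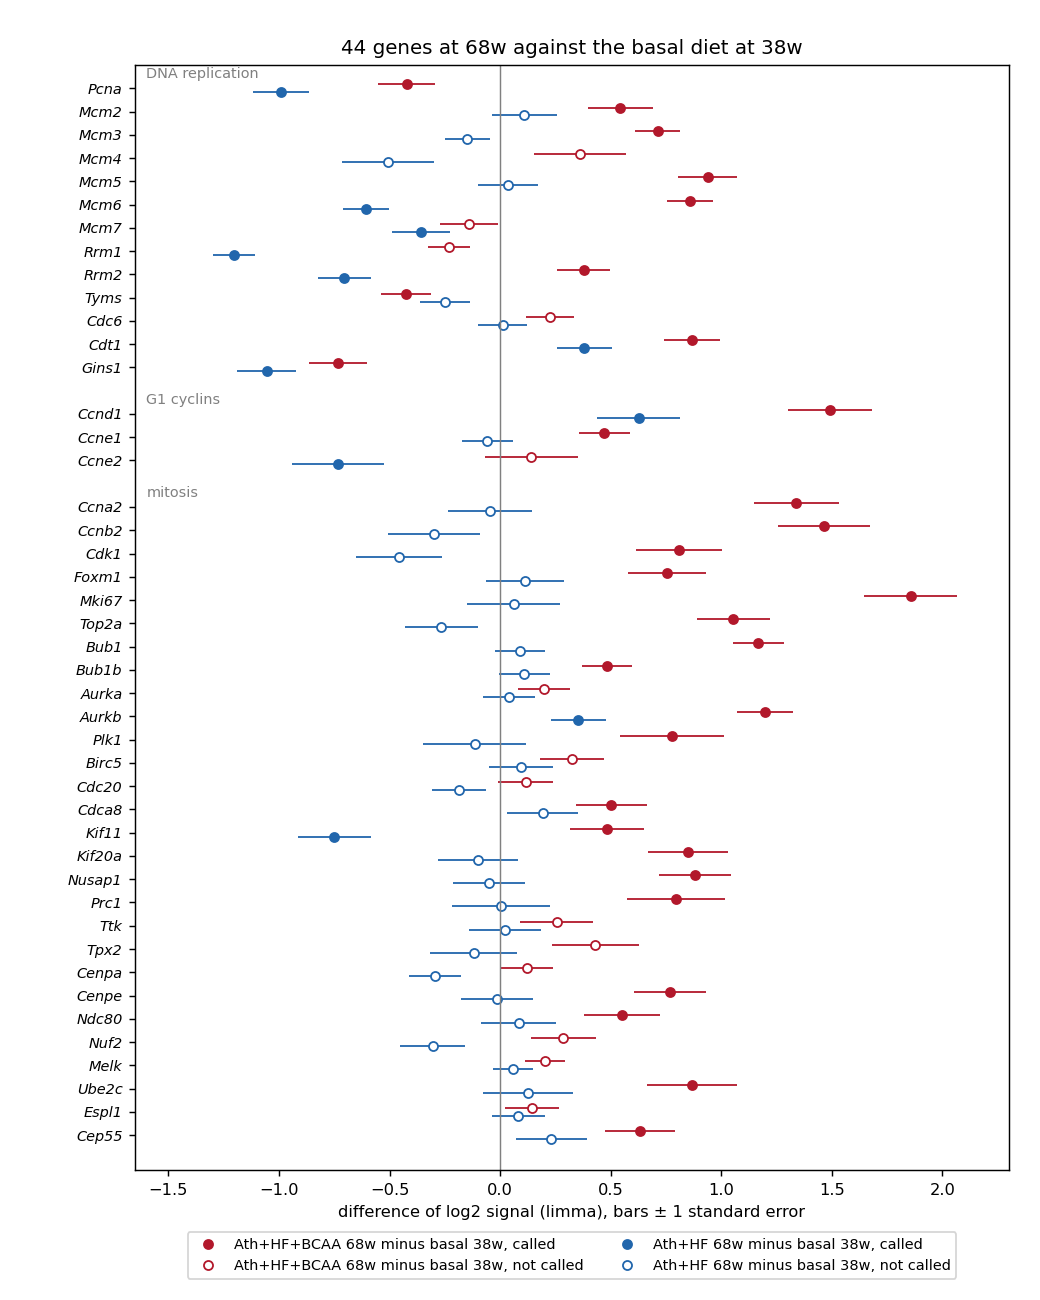
Difference of log2 signal from the basal 38w arrays (horizontal axis, limma, bars ± 1 standard error) of the Ath+HF+BCAA 68w group (red) and the Ath+HF 68w group (blue) for the 44 genes, with filled points for called genes. Every red mitosis point is above 0, and the blue points below -0.9 are Rrm1, Gins1 and Pcna.

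The ages were compared within each diet, where age, time on the diet and any batch cannot be told apart. Without BCAA, 20 genes were called lower at 68w than at 38w and none higher, beside 20% and 17.6% of all genes. These were 8 replication genes, Ccne2 and 11 mitosis genes, with Pcna (-1.13), Gins1 (-0.99), Rrm1 (-0.98), Kif11 (-0.93) and Mcm6 (-0.90) the furthest down. Ccnd1, at 0.45 (SE 0.19, adjusted p = 0.0757), was not called, but was called higher in 3 alternatives, by 0.54 after quantile normalization, 0.45 with replicate numbers as a block and 0.69 without Ath+HF 68w replicate 2. Without that array 12 genes were called lower, beside 3242 of all genes.

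With BCAA, 19 genes were called higher at 68w than at 38w and 3 lower, beside 20.5% and 18.3% of all genes. The higher genes were Mcm3, Mcm5 and Mcm6, Ccnd1 (1.14), Ccne1 and 14 mitosis genes led by Ccnb2 (1.10) and Mki67 (1.09). The lower ones were Pcna (-0.60), Gins1 (-0.57) and Tyms (-0.33). Tyms was not called without any of the Ath+HF+BCAA 68w arrays in turn or without Ath+HF+BCAA 38w replicate 3, and Top2a (0.58) was not called without replicate 2 of either age, after quantile normalization, by the analysis of variance, or as the mean of its clusters (0.12, adjusted p = 0.465).

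At 38w few genes passed the test. The Ath+HF+BCAA arrays had 5 genes called higher than basal, beside 3.67% of all genes, and none lower, beside 1.82%. These were Mki67 (0.77), Aurkb (0.71), Cdt1 (0.65), Bub1 (0.52) and Mcm6 (0.38). There were 2 higher calls without basal replicate 1 or Ath+HF+BCAA 38w replicate 3, and 3 without basal replicate 2 or 3 or Ath+HF+BCAA 38w replicate 1. None was made when the 2 groups were fitted alone. Over all genes, higher calls were 389 to 578 without these arrays, 262 with the groups alone and 732 with all arrays fitted. The Ath+HF arrays had 3 called higher, beside 3.05%, and none lower, beside 1.18%. These were Bub1 (0.86), Ccna2 (0.71) and Aurkb (0.66). The Ccna2 call was lost without basal replicate 1 or 3 or Ath+HF 38w replicate 2 or 3 (adjusted p from 0.0613 to 0.156). It was also lost in 6 other alternatives, both renormalizations among them. The Aurkb call was lost with the groups fitted alone (adjusted p = 0.0605). In this comparison 37 of 44 differences were positive, as were 10124 of all 19938, and 13 of the 44 genes had an unadjusted p under 0.05, as did 3504 of all genes. The median was 0.19 over the 44 genes and 0.09 without Ath+HF 38w replicate 2, the array with the highest value of its group in 26 of 28 mitosis genes. Without that array 2 genes were called, and without replicate 3 of the same group 5 were. Of all genes, 308 and 495 were called higher in these fits.

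The BCAA supplement itself made no called difference at 38w in limma, for the 44 genes or for any gene (0% higher and 0% lower). At an unadjusted p under 0.05 there were 3 of the 44 genes and 1528 of all genes, and array weights called 1 gene of all, as did leaving out Ath+HF+BCAA 38w replicate 3. The analysis of variance of the study's methods, Bonferroni-corrected over the pairs of groups but not over genes, called 82 genes of all higher and 119 lower. None of the 44 genes was called in these 3 alternatives. The differences of the 44 genes ranged from -0.35 to 0.26. Whether BCAA acted unequally at 68w and 38w was tested directly, as the difference between the groups at 68w minus that at 38w. It was called higher for 22 of the 44 genes, 6 of replication, 1 G1 cyclin and 15 of mitosis, and lower for none, beside 12.9% and 7.67% of all genes, with a median of 0.69 over the 44 and -0.04 over all genes.

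Other genes of the same pathways, from lists drawn up by function, were read beside these. Between the 68w groups, where 19.8% of all genes were called higher and 16.4% lower, 31 of 50 other mitosis genes were higher and none was lower, with a median of 0.47. Examples are Anln (1.35), a scaffold of the cleavage furrow, Mad2l1 (1.27), a spindle checkpoint protein, and Plk4 (0.92), which starts the copying of centrioles. Of 40 other replication genes, 20 were higher and 1 lower, with a median of 0.37, among them Pole (1.16), the catalytic subunit of DNA polymerase epsilon, Rfc5 (0.80) of the clamp loader and Prim2 (0.76) of primase. The lower one was Mcm10 (-0.68), which acts when the helicase is activated. Upstream, 5 of 7 G1 kinases, D cyclins and Myc were higher, among them the growth regulator Myc (1.15), Ccnd2 (1.03) and Cdk6 (0.85). Of 21 E2F, RB and MuvB regulators, 7 were higher, with Rbl1 (1.55), which encodes the RB-related repressor p107, and Nfya (0.51), a subunit of NF-Y that contacts DNA, and 1 was lower. This was E2f8, an E2F that represses, with a difference of -2.04 (SE 0.37, adjusted p = 0.000427). Of 6 Cdk inhibitors, Cdkn2c (1.06) and Cdkn1b (0.57) were higher and none was lower.

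Against basal, the other replication genes were 9 higher and 7 lower of 40 with BCAA at 68w, beside 22.9% and 21.8% of all genes, and none higher and 19 lower without it, beside 19% and 19.1%. The other mitosis genes were 33 higher and 5 lower of 50 with BCAA, and 1 higher and 13 lower without it. The 5 lower ones with BCAA, named after their values were seen, were Spc25 (-1.87) and Cenpk (-0.51) of the kinetochore, Cks2 (-0.89), a partner of Cdk1, Pttg1 (-0.51), the securin, and Bub3 (-0.42) of the checkpoint. At 38w, Ath+HF against basal had no other replication or mitosis gene higher, 2 replication genes lower and 1 mitosis gene lower, Spc25 (-0.93). Of all genes, 3.05% were called higher there and 1.18% lower.

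By the labels of the arrays, markers of macrophages, stellate cells and cholangiocytes were higher in the Ath+HF+BCAA than in the Ath+HF group at 68w. Between the 68w groups, beside 19.8% of all genes higher and 16.4% lower, higher calls were made for 10 of 12 macrophage markers (median 2.04), 6 of 8 of stellate cells and myofibroblasts (median 1.12), 5 of 5 of cholangiocytes (median 0.86), 5 of 8 of T and NK cells, 5 of 7 of endothelial cells, 1 of 8 of neutrophils and 1 of 5 of B and plasma cells, and 0 of 6 of erythroid precursors. Of 7 hepatocyte markers none was higher and 1 was lower. The summed linear signals of the stellate cell list were 4933 to 5460 in the Ath+HF+BCAA 68w arrays, 2618 to 2877 in the Ath+HF 68w arrays and 2647 to 2873 in the basal arrays, and those of the cholangiocyte list 1723 to 1797, 744 to 919 and 747 to 1010. Against basal, 22.9% of all genes were called higher and 21.8% lower in the Ath+HF+BCAA 68w arrays. Higher markers there were 10 of macrophages, 6 of stellate cells, 5 of cholangiocytes and 5 of T and NK cells. A further 3 of neutrophils, 3 of endothelial cells, 1 of erythroid precursors and 1 of B and plasma cells were higher. Lower ones were 2 of endothelial cells, 2 of erythroid precursors and 1 of stellate cells. At 38w, 8 of 12 macrophage and 4 of 8 stellate cell markers were higher than basal in each diet group, and 1 T and NK cell marker without BCAA. Of all genes, 3.67% were higher there with BCAA and 3.05% without. The Ath+HF 68w arrays had 1 macrophage marker higher and 5 lower than basal, and 4 of 7 endothelial markers lower. Other lists had at most 1 marker called in either direction, beside 19% of all genes higher and 19.1% lower. The part of these cells in the cell cycle values was not tested.

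Array by array, the median difference of the 28 mitosis genes from basal was 0.74, 0.77 and 0.47 in the Ath+HF+BCAA 68w arrays, -0.01, -0.02 and 0.01 in the Ath+HF 68w arrays, 0.24, 0.12 and 0.44 in the Ath+HF+BCAA 38w arrays, and 0.12, 0.73 and 0.14 in the Ath+HF 38w arrays. The median of the 12 macrophage markers was 1.42, 1.77 and 1.42 in the Ath+HF+BCAA 68w arrays, -0.54, -0.32 and -0.20 in the Ath+HF 68w arrays, 1.31, 0.77 and 1.43 in the Ath+HF+BCAA 38w arrays, and 1.09, 1.09 and 0.98 in the Ath+HF 38w arrays. In Ath+HF 38w replicate 2, the mitosis median lay within the range of the Ath+HF+BCAA 68w arrays. Macrophage markers there had a median of 1.09, against 1.09 and 0.98 in the others of its group, and the group's highest sum, 19316. The medians of neutrophils (0.56), B and plasma cells (0.60), stellate cells (0.71), cholangiocytes (0.22), hepatocytes (0.14) and erythroid precursors (-0.08) were the highest of its group. Those of T and NK cells (0.20) and endothelial cells (-0.17) were not. The replication genes had medians of 0.40, 0.38 and 0.27 in the Ath+HF+BCAA 68w arrays and -0.28, -0.30 and -0.45 in the Ath+HF 68w arrays, and the replication median of Ath+HF 38w replicate 2 was 0.18. Within the Ath+HF+BCAA 68w group, replicate 3 was lowest in 23 of 28 mitosis and 10 of 13 replication genes, and replicate 2 was highest in 19 mitosis genes and had neutrophil and T and NK cell medians of 2.02 and 1.06.

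**Figure D5:**
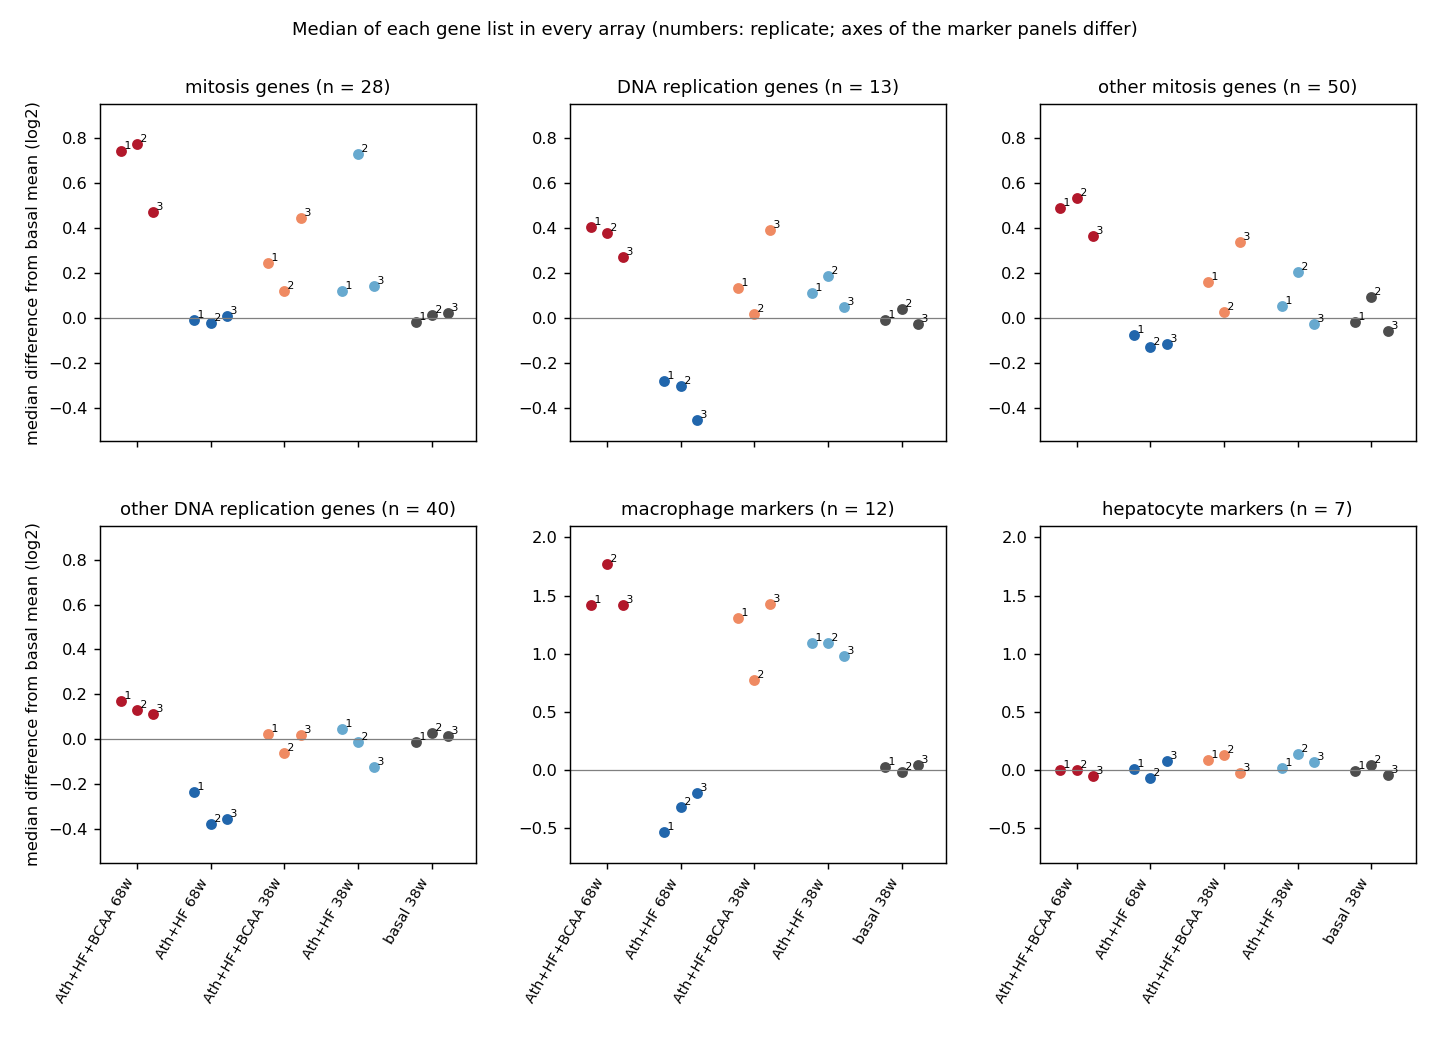
Median difference of log2 signal from the basal 38w mean (vertical axis) over the genes of a list, for each array (replicate numbers), in panels for the mitosis and replication genes, the other genes of both processes, and macrophage and hepatocyte markers. Ath+HF 38w replicate 2 stands at 0.73 for mitosis and at 1.09 for macrophages, where the others of its group stand at 1.09 and 0.98. Hepatocyte medians stay between -0.07 and 0.14.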

How the data were processed

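The authors normalized the arrays by RMA in Affymetrix Expression Console (version not given in the sources used here) and deposited log2 values, which were used without normalizing them again. Of 35556 transcript clusters, 21789 carry 1 symbol, 1621 several and 12146 none. RefSeq (GRCm38.p6) held the Entrez ID of 21698, and the brightest cluster stood for each of the 999 genes that have several. No arrays were identical, and array medians lay between 6.91 and 7.16. A mean for each group was fitted over the 15 arrays with limma version 3.58.1 in R version 4.3.3, with 10 degrees of freedom left for the spread and 9 comparisons made. p-values were adjusted by the Benjamini-Hochberg method over 19938 genes, and the fit was tested on simulated data. The number of arrays limits the precision.

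The genes, lists and tests were chosen with earlier results of these data known. Genes with values in every array are Pcna, Ccnd1, Cdk1, Mki67 and Top2a, those with the smallest p over the comparisons, and called genes opposite to most of their list. Mcm5 was added after its values were seen, for its promoter. Alternatives were other normalizations, filters, fits and tests, and leaving out each array. Markers on rows with several symbols, such as Cdkn1a, were left out.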

Additional observations from a re-analysis of the deposited data

Results flagged for a closer look

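The effect of BCAA at 68w differed from that at 38w for 22 of the 44 genes, by limma's test of the difference itself, and in all 22 it was more positive at 68w. The values in brackets are the log2 difference of the Ath+HF+BCAA and Ath+HF groups at 68w minus that at 38w. They were Pcna (0.53), Mcm3 (0.69), Mcm5 (0.75), Mcm6 (1.37), Rrm1 (0.90) and Rrm2 (0.94) in replication, and Ccne1 (0.53) among the G1 cyclins. In mitosis they were Ccna2 (1.59), Ccnb2 (1.85), Cdk1 (1.35), Mki67 (1.72), Top2a (1.32, from its brighter cluster), Bub1 (1.43), Aurkb (0.80), Plk1 (1.01), Cdc20 (0.61), Kif11 (1.03), Kif20a (1.08), Nusap1 (0.87), Cenpa (0.59), Cenpe (0.79) and Nuf2 (0.79). Among these, Pcna was lost without any of 10 of the 12 arrays in turn (adjusted p up to 0.139), Ccne1 without any of 9 and Plk1 without any of 8. These directions rest on the labels of the arrays.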

How the results depend on the processing

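Of 145 calls of a gene in a comparison, 84 held under every alternative that could be run for them, 61 were lost in at least 1, and none reversed. The filter on dim genes was run for 13 of the 44 genes, and the analysis of variance was not run for the difference of the BCAA effect. Without dim genes, which leaves 13 of the 44 genes and 9969 of all, the higher calls against basal were 2 for Ath+HF+BCAA 38w and 8 for Ath+HF+BCAA 68w, the lower calls of Ath+HF 68w against basal were 5 and against 38w 8, and the higher calls were 6 for Ath+HF+BCAA 68w against 38w, 11 between the 68w groups and 9 for the difference of the BCAA effect. Over the 9969 genes kept, these calls were, in the same order, 740, 2974, 3481, 3642, 2551, 3191 and 2221. The cause of the other changes was not tested. For Ath+HF 38w against basal, a variance trend with a robust fit gave 5 higher, beside 725 of all genes. For Ath+HF+BCAA 38w against basal, higher calls were 3 with array medians set equal, 3 after quantile normalization and 2 with array weights. Of all genes, 574, 587 and 489 were higher there. With the groups fitted alone 0 were called, beside 262 of all genes. The 38w arrays alone, a fit chosen after seeing the data, gave 3, beside 442 of all genes. For Ath+HF 68w against basal, higher calls were 1 with medians equal and 1 after quantile normalization, beside 2651 and 2222 of all genes. With the groups alone or the Bonferroni analysis of variance of the study's methods 0 were higher, beside 3098 and 2241. Lower calls were 15 after quantile normalization, beside 3990. Lower calls for Ath+HF+BCAA 68w against basal were 5 with medians equal, and between the 68w groups 1, beside 7625 and 7362 of all genes. For Ath+HF 68w against 38w, higher calls were 1 after quantile normalization and 1 with the replicate block, beside 2522 and 3441 of all genes. The analysis of variance gave 10 lower, beside 2928. It also gave 10 higher for Ath+HF+BCAA 68w against 38w, beside 2805.

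Leaving out 1 array at a time, higher calls against basal were 2 to 5 for Ath+HF 38w and 2 to 5 for Ath+HF+BCAA 38w. Of all genes, 308 to 495 and 389 to 862 were higher there. At 68w, higher calls against basal were 0 to 2 for Ath+HF and 24 to 28 for Ath+HF+BCAA. Of all genes, 2610 to 3315 and 3873 to 4294 were. Lower calls were 7 to 9 for Ath+HF 68w and 2 to 4 for Ath+HF+BCAA 68w. Over all genes they were 3056 to 3581 and 3413 to 4232. Without BCAA, calls for 68w against 38w were 0 to 1 higher and 12 to 23 lower. Of all genes, 2318 to 3053 were higher there and 3216 to 3701 lower. With BCAA, calls for 68w against 38w were 14 to 22 higher and 2 to 3 lower. Of all genes, 3122 to 3694 were higher there and 2807 to 3397 lower. Between the 68w groups 27 to 31 were higher, and for the difference of the BCAA effect 16 to 25. Over all genes, these were 3313 to 3684 and 2079 to 2552. In deviations from the group mean, 3 of 30 same-numbered pairs correlated above 0.1 and 5 of 15 arrays correlated best with their own number. Between the basal and Ath+HF arrays of 38w, same-numbered pairs were positive (0.17, 0.17 and 0.06) and all others negative (-0.14 to -0.02). With 3 arrays per group, these values cannot settle whether replicate numbers pair the arrays. With the replicate number as a block, 3 calls were lost, Mcm6 for Ath+HF+BCAA 38w against basal (0.38), Mcm3 for Ath+HF 68w against 38w (-0.27) and Pcna for the difference of the BCAA effect (0.53), and 5 were gained, Cdt1 for Ath+HF 38w against basal, Ccnd1 for Ath+HF 68w against 38w, and Ccnd1, Prc1 and Ube2c for the difference of the BCAA effect.

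Setting array medians equal shifted the median of all genes to -0.20 for Ath+HF+BCAA 68w against basal, where it was 0.01, and to -0.23 between the 68w groups, where it was -0.09. The calls over all genes were then 2649 higher and 7625 lower (4557 and 4342 as deposited) for Ath+HF+BCAA 68w against basal, 2651 and 4565 (3791 and 3812) for Ath+HF 68w against basal, 2346 and 5735 (4081 and 3654) for Ath+HF+BCAA 68w against 38w, 2965 and 7362 (3947 and 3274) between the 68w groups, 1820 and 3608 (2572 and 1530) for the difference of the BCAA effect, 445 and 559 (608 and 235) for Ath+HF 38w against basal, and 574 and 663 (732 and 363) for Ath+HF+BCAA 38w against basal.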
